A study of Mus musculus with 18 samples.

Results

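The genes described here are 9 transcripts of mouse B cells that encode, for the most part, proteins that dampen signaling from the antigen receptor: Faim3 (the older symbol of Fcmr), Laptm5, Sla, Dgka, Tbc1d10c, Lax1, Traf3ip3, AB124611 and Btg2. They were taken by symbol from the 23420 genes listed for each library, and all 9 were found. They were selected on measured values. The study named these genes as regulators among the transcripts that were higher in CL097-stimulated Tlr779 cells than in CL097-stimulated Tlr7+/Y control cells. The control libraries were not analysed here. The fall of the 9 genes upon stimulation was known when they were grouped. Cd22, Inpp5d and Ets1, which the study named beside them, are not among the genes grouped here, and their values are given with those of the pathway. The responses of the damper genes to stimulation are therefore given as descriptions without a test. Tests are kept for the comparisons between Tlr997 and Tlr9het. The grouping used the CpG falls of both genotypes in the same libraries, so these tests are not fully independent of it.

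RNA was sequenced from B cells that had been purified with magnetic beads, by negative selection, from spleens of MRL/lpr mice aged 5 to 7 weeks. Mice of this strain lack normal Fas (the lpr mutation) and become spontaneously autoimmune. In the first arm all mice were female and Tlr7-/-, and cells titled Tlr9het (Tlr9+/- Tlr7-/-) were set beside homozygous Tlr997 Tlr7-/- cells, whose TLR9 has the TIR (signaling) domain of TLR7. Each genotype was left unstimulated or given 10 µg/ml of CpG, a TLR9 agonist, for 4 h. In the second arm all mice were male and Tlr9-/-, and Tlr779 cells, whose TLR7 has the TLR9 TIR domain, were kept without agonist or given 5 µg/ml of CL097, a TLR7 agonist, for 4 h. Each of the 6 groups held 3 libraries, 18 in all. Both chimeric alleles were made with CRISPR/Cas9 in the endogenous loci of the MRL/lpr strain, so every cell type that uses the locus carries them. The ages are those of the treatment protocol, which gives the same range for both arms, whereas the methods give 5 weeks for the female mice. For the Tlr9het cells the treatment protocol writes Tlr9-/- Tlr7-/-, against Tlr9+/- in the sample titles, which were followed. The protocol describes 3 mice per genotype without tying a replicate number to a mouse, so p-values measure the spread between these libraries, which may be technical.

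Binding of antigen to the B cell receptor starts a cascade of the kinases LYN, SYK and BTK, which leads to diacylglycerol, calcium, RAS and NF-κB signals. Damping proteins act on several of these steps: they remove receptors from the surface, consume second messengers or hold kinases and small GTPases inactive. TLR7 and TLR9 are endosomal receptors of RNA and DNA that signal in the same cells through MyD88. RNA levels do not measure receptor signaling or protein, and in bulk samples fewer cells of a type and less RNA per cell cannot be told apart.

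The libraries were similar in scale. Values are log2 CPM (read counts per gene put on a common library scale), quantile normalized by the authors, so summed CPM ran only from 991992 to 1004410 and the sequencing depth is unknown. Correlations between replicates ran from 0.947 to 0.9898 over 11494 genes, with 1 unstimulated Tlr997 library standing lowest. Reads were still counted for the targeted receptor genes. In the Tlr7-/- arm Tlr7 lay between 2.68 and 5.36 log2 CPM. Its mean was 3.15 unstimulated and 4.21 with CpG in Tlr9het, and 4.96 and 5.34 in Tlr997. Tlr7 lay between 6.61 and 7.82 in Tlr779, and Tlr9 between 6.93 and 7.47 in the Tlr9-/- arm. The Tlr997 allele holds TLR7 TIR sequence in the Tlr9 locus, and the Tlr779 allele holds TLR9 TIR sequence in the Tlr7 locus. Gene-level values therefore cannot show from which locus such reads came or whether the transcripts encode a receptor. The 7 B cell markers together lay between 12.50 and 12.90 (log2 of summed CPM) in unstimulated libraries. After stimulation they were at 10.79 to 10.84 in Tlr9het, 11.45 to 11.72 in Tlr997 and 11.31 to 11.65 in Tlr779. Several of the dampers are also used by T cells. The defining T cell genes Cd3d, Cd3e and Cd3g lay between -4.66 and 2.44 in all 18 libraries, and the mean of each was higher with CpG than without in both genotypes. The summed level of all 9 T cell markers lay at 7.94 to 8.13 in unstimulated Tlr9het, a sum in which Cd2 (7.39 to 7.54 unstimulated, 3.40 to 3.74 with CpG) weighed heavily, and at 6.61 to 7.104 with CpG. It lay at 7.80 to 8.27 and then 6.49 to 6.69 in Tlr997, and at 7.89 to 8.14 and then 6.98 to 7.24 in Tlr779. The 7 macrophage markers together lay at 7.66 to 8.03 in unstimulated and 7.09 to 7.43 in stimulated Tlr9het libraries. In the other genotypes they spread more widely and overlapped between conditions, at 7.06 to 8.46 and then 6.64 to 7.72 in Tlr997, and at 7.55 to 8.81 and then 6.61 to 7.65 in Tlr779. The part of the B cell, T cell and macrophage marker shifts in the results below was not tested.

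The damper genes are spread over 6 chromosomes, and 4 of them lie on chromosome 1 (GRCm38, the assembly behind mm10). Faim3 lies at chr1:130865777-130880790 on the plus strand. Lax1 at chr1:133679017-133693022, Btg2 at chr1:134074865-134079155 and Traf3ip3 at chr1:193175504-193201546 are on the minus strand. Laptm5 spans chr4:130912890-130936148 (plus), AB124611 chr9:21526114-21545333 (plus), Dgka chr10:128720131-128745084 (minus), Sla chr15:66780819-66831829 (minus) and Tbc1d10c chr19:4184357-4191195 (minus). All of Sla lies inside Tg, the thyroglobulin gene, which runs on the opposite strand. Tg was between -4.70 and 2.40 log2 CPM in the 18 libraries. Dgka shares 105 bases with the opposite-strand gene Pmel, which was between -5.07 and 1.47. Traf3ip3 shares 2380 bases with the opposite-strand gene A130010J15Rik, which was between 3.28 and 4.45, and 5106 bases with the antisense gene Gm15872. AB124611 shares 359 bases with the opposite-strand pseudogene Gm20519. Tbc1d10c shares 7637 bases with AC109138.8, a processed transcript on the same strand, in gene models of GENCODE, where Tbc1d10c is longer than the RefSeq span given above. Gm15872, Gm20519 and AC109138.8 were not analysed here. The strand setting and the gene annotation used in counting were not given, so the stimulated level of Traf3ip3 and all levels of Tbc1d10c are uncertain in this respect.

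RefSeq gave promoter sequence (GRCm38, 250 bases before to 50 after a start) for 7 of the 9 genes, in 11 entries. Both strands were searched for the cores AGGAAGT (PU.1, an ETS-family factor of B and myeloid cells), CCGGAAG (other ETS factors), GTAAACA (forkhead), CACGTG (E-box) and CACACCC (KLF). None of these overlapped another in the entries that matched. AGGAAGT occurred in 2 of the 7 genes, Traf3ip3 and AB124611, and in 10.7% of all 27025 genes with a promoter entry. Traf3ip3 held it 3 times, 1 in the sense of the gene and 2 on the other strand. CACGTG occurred in 1 of 4 Dgka entries, 17 bases before the start, and in 8.09% of all genes. That entry also held CACACCC after the start, which 9.05% of all genes held. GTAAACA (4.05% of all genes) and CCGGAAG (9.93%) occurred in none of the 11 entries. A match is a string of letters and no evidence of a bound factor. The 250 bases before the start are shown for the 3 genes with a match, since shared promoter letters are a feature that the choice of genes did not use; capitals mark AGGAAGT (or ACTTCCT on the other strand) and CACGTG.
Traf3ip3, chr1:193201547-193201796, minus strand: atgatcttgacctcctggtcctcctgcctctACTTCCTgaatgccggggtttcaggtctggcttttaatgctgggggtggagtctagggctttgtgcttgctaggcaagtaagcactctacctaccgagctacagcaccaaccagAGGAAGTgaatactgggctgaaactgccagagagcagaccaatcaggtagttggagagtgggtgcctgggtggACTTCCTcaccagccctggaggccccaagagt
AB124611, chr9:21525927-21526176, plus strand: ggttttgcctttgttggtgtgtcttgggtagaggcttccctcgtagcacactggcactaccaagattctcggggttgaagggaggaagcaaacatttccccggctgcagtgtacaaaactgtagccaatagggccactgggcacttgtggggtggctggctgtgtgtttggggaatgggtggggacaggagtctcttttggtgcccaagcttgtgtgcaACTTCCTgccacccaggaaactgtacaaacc
Dgka, chr10:128737613-128737862, minus strand: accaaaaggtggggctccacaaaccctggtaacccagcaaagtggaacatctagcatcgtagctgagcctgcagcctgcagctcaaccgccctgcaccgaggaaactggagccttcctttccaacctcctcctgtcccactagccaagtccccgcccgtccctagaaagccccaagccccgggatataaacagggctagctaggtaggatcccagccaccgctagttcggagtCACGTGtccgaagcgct
The GC content of the members' 250 bases ran from 41.2% to 73.2% across the 11 entries, around the median of 52.4% over all entries.

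The 9 damper genes, grouped with their fall known, were lower after stimulation in each of the 3 responses. With CpG the median log2 fold change was -3.06 in Tlr9het and -3.02 in Tlr997, and with CL097 in Tlr779 it was -1.92. Over all genes tested these medians were 0.04, 0.07 and -0.02. A gene was called where limma's adjusted p (Benjamini-Hochberg) was under 0.05 and the absolute log2 fold change over 0.5. Over all genes, 28.2% of the 11494 tested were called lower in Tlr9het, 26% in Tlr997 and 23.6% of the 11082 tested in Tlr779, and 29.7%, 29.6% and 22.7% were called higher. These shares are the background for the pathway lists described further on. The 9 damper genes were chosen on these responses, so no count of calls is given for them there.

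**Figure D1:**
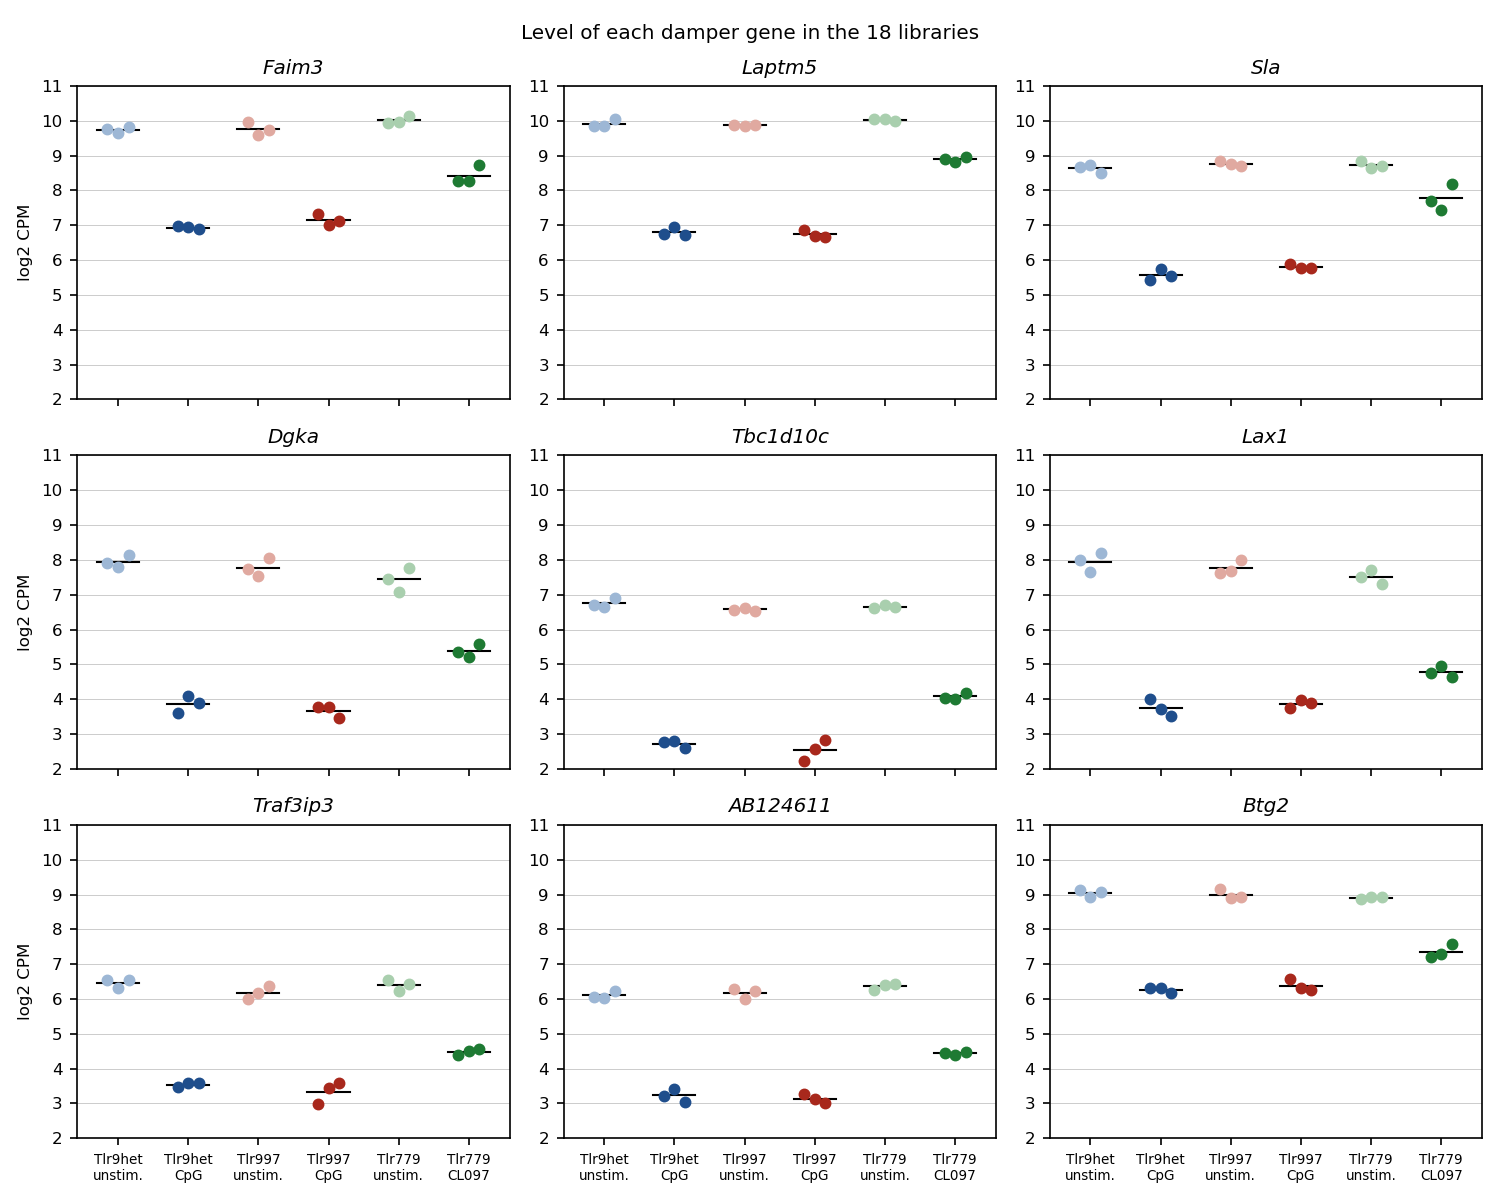
Level of each of the 9 damper genes in log2 CPM (vertical axis, the same range in every panel) in the 6 groups (horizontal axis); points are libraries and black bars are group means (n = 3). In every panel the stimulated means lie under the unstimulated ones, and the CL097 mean of Tlr779 lies above the CpG means of both other genotypes.

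Faim3 encodes the Fc receptor for IgM, a surface protein of B cells that binds IgM and influences signaling through the IgM receptor. Its level was 9.77, 9.64 and 9.82 log2 CPM in unstimulated Tlr9het libraries and 6.97, 6.94 and 6.90 with CpG. In Tlr997 it was 9.96, 9.59 and 9.72 unstimulated and 7.31, 7.00 and 7.11 with CpG. Each CpG library lay more than 2 log2 units under every unstimulated one. In Tlr779 it went from 9.93, 9.97 and 10.14 to 8.28, 8.27 and 8.75 with CL097, the third CL097 library being the highest. These are log2 fold changes of -2.81, -2.61 and -1.59, which leave 14.3%, 16.3% and 33.3% of the unstimulated level.

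Laptm5, a lysosomal membrane protein that promotes degradation of antigen receptors, and Sla, an adaptor that works with the ubiquitin ligase CBL to lower receptor levels, both control how much receptor a lymphocyte keeps. Laptm5 was at 9.85, 9.84 and 10.05 log2 CPM in unstimulated Tlr9het and at 6.75, 6.94 and 6.72 with CpG. In Tlr997 it went from 9.89, 9.86 and 9.88 to 6.87, 6.68 and 6.68, so the CpG libraries of both genotypes interleaved. In Tlr779 it went from 10.04, 10.06 and 9.99 to 8.89, 8.82 and 8.97, and 45.6% of the unstimulated level was left, against 11.6% in Tlr9het. Sla was at 8.67, 8.74 and 8.49 in unstimulated Tlr9het and at 5.43, 5.76 and 5.55 with CpG. In Tlr997 it went from 8.83, 8.75 and 8.71 to 5.89, 5.77 and 5.76, each CpG library lying slightly above the Tlr9het ones. With CL097 in Tlr779 Sla went from 8.86, 8.63 and 8.70 to 7.71, 7.43 and 8.20, which left 51.8%. The 3 CL097 libraries were spread widely for this gene, and without the third the log2 fold change was -1.16 in place of -0.95.

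Lax1 and Traf3ip3 are adaptors. Lax1 is a transmembrane adaptor of lymphocytes that limits signaling after antigen receptor engagement, and Traf3ip3 binds TRAF3, a regulator of TLR and TNF receptor family signals. Lax1 was at 7.99, 7.66 and 8.20 log2 CPM in unstimulated Tlr9het and at 4.01, 3.72 and 3.53 with CpG, the steepest fall of the 9 genes in that genotype. In Tlr997 it went from 7.61, 7.67 and 8.01 to 3.74, 3.98 and 3.89, and in Tlr779 from 7.51, 7.72 and 7.296 to 4.75, 4.96 and 4.64. CpG left 5.46% and 6.73% of the Lax1 level, and CL097 left 15.1%. Traf3ip3 was at 6.54, 6.32 and 6.56 in unstimulated Tlr9het and at 3.47, 3.58 and 3.59 with CpG. In Tlr997 it went from 6.0, 6.17 and 6.36 to 3.00, 3.45 and 3.58, the first library being low in both conditions. With CL097 in Tlr779 it went from 6.54, 6.24 and 6.44 to 4.38, 4.50 and 4.58, with no overlap between conditions.

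Dgka and Tbc1d10c act on messengers after the receptor. Dgka is the kinase that converts diacylglycerol to phosphatidic acid, and Tbc1d10c (Carabin) inhibits RAS and calcineurin. Dgka was at 7.90, 7.80 and 8.13 log2 CPM in unstimulated Tlr9het and at 3.60, 4.09 and 3.89 with CpG. In Tlr997 it went from 7.75, 7.53 and 8.05 to 3.77, 3.78 and 3.46, so that 5.88% and 5.80% of its level was left. In Tlr779 it went from 7.45, 7.09 and 7.78 to 5.37, 5.21 and 5.59, which left 24.1%. Tbc1d10c was at 6.71, 6.64 and 6.91 in unstimulated Tlr9het and at 2.77, 2.80 and 2.60 with CpG. In Tlr997 it went from 6.57, 6.63 and 6.55 to 2.23, 2.56 and 2.83, the widest spread of this gene in any group. CpG left 6.13% and 6.07% of Tbc1d10c, and CL097 left 16.8% (6.61, 6.71 and 6.65 unstimulated against 4.05, 4.02 and 4.19).

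Btg2 is an antiproliferative protein of the BTG/Tob family that promotes removal of mRNA poly(A) tails. It is not a component of the antigen receptor pathway, so the name damper fits it less well than the others, and the role of AB124611 is not stated here. Btg2 ran from 8.86 to 9.16 log2 CPM over the 9 unstimulated libraries of the 3 genotypes, from 6.17 to 6.57 over the 6 CpG libraries and from 7.19 to 7.57 with CL097. Its log2 fold changes were -2.77, -2.62 and -1.55. AB124611 ran from 5.99 to 6.43 unstimulated, from 3.01 to 3.43 with CpG and from 4.399 to 4.492 with CL097. Its log2 fold changes were -2.88, -3.02 and -1.92, and the 3 ranges of each gene stood apart.

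The genes fell to different depths. In Tlr9het, Lax1 (-4.19), Dgka (-4.09) and Tbc1d10c (-4.03) lay about 1 log2 unit under the other 6, which were between -3.11 and -2.77. The same 3 genes lay lowest in Tlr997, where Dgka (-4.11), Tbc1d10c (-4.04) and Lax1 (-3.89) were followed by Laptm5 (-3.14). Standard errors were 0.07 to 0.15 in that arm, and in Tlr9het each gap between neighbours in this order, other than that under Tbc1d10c, was smaller than the larger of their standard errors. With CL097 in Tlr779, Lax1 (-2.72 ± 0.13, SE) and Tbc1d10c (-2.57 ± 0.08) were again lowest, while Laptm5 (-1.13 ± 0.07) and Sla (-0.95 ± 0.18) changed least. In Tlr9het 0.383% of tested genes had a lower log2 fold change than Lax1, and 2.64% had a lower one than Btg2, the highest of the 9. In Tlr779, 0.487% of tested genes lay under Lax1 and 13.6% under Sla. Such low places among all genes follow from grouping the genes with their fall known.

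**Figure D2:**
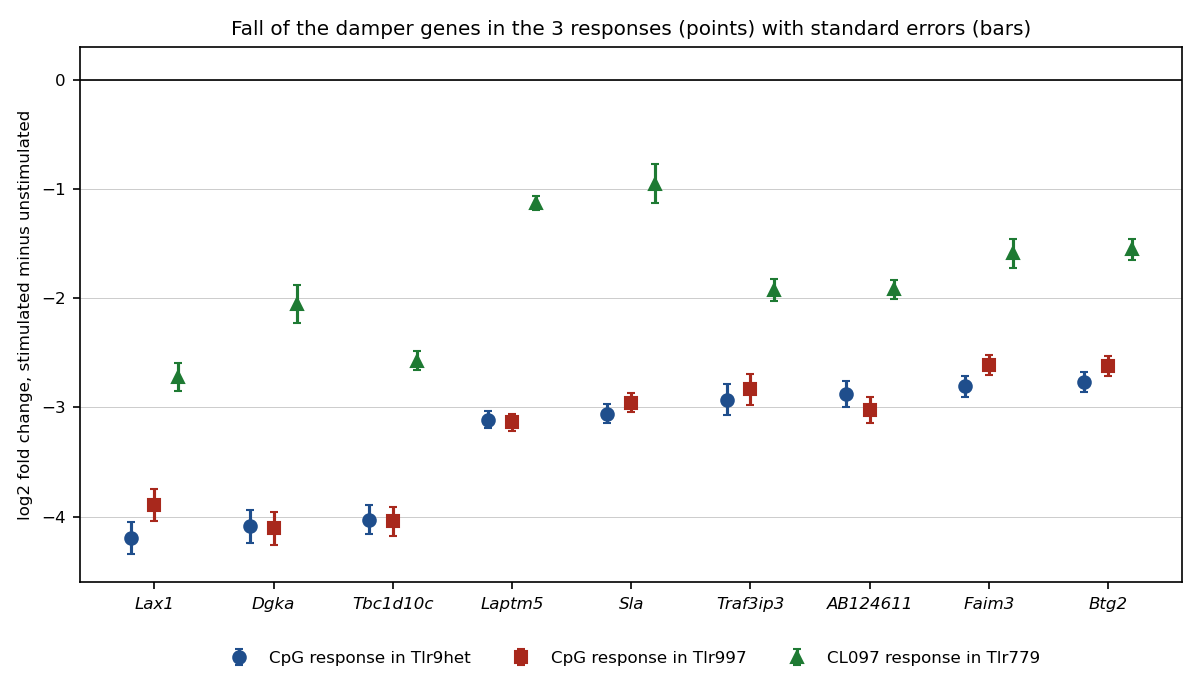
Log2 fold change (vertical axis, stimulated minus unstimulated, log2 CPM) of the 9 damper genes (horizontal axis, ordered by the Tlr9het response) in the 3 responses; points are estimates and bars are standard errors of the fit. The Tlr9het and Tlr997 points lie close together for each gene, between -4.19 and -2.61, and the Tlr779 points lie higher, between -2.72 and -0.95.

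Set side by side, each gene fell less with CL097 in Tlr779 than with CpG in either other genotype. The Tlr779 log2 fold change was 31.1% of the Tlr9het one for Sla, 36.4% for Laptm5 and 50.2% for Dgka. It was 56.1% for Btg2, 56.5% for Faim3, 63.8% for Tbc1d10c, 64.9% for Lax1, 65.7% for Traf3ip3 and 66.7% for AB124611. The median of the 9 was 56.5%. Over the 2254 genes called lower in both responses the median was 73.7%, with quartiles at 58.2% and 94.0%. In Tlr9het 3241 genes were called lower. Those not also called lower in Tlr779 are left out of this median, which can raise it, so it is no even background for the 9 genes. For none of the 9 genes did the fall between any same-numbered pair of Tlr779 libraries reach the smallest fall between such pairs of Tlr9het. The share of all genes with such a separation was not computed, so nothing particular to the 9 genes is read from it. The arms differ in sex, genotype and agonist together, and possibly in age, so these cannot be told apart and no test between arms was made. The receptors stimulated differ too. The paper places TLR779 in certain B cell subsets and TLR9 in all of them, and reports less TLR779 than wild-type TLR7. The part of these differences in the smaller fall was not tested. The CL097 libraries also entered the study's choice of these genes, so a smaller fall there is not independent evidence of its direction.

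Whether the TIR domain carried by TLR9 changes these transcripts was asked in 3 comparisons between the genotypes. The genes were grouped with their CpG fall in both genotypes known, so the comparisons are not fully independent of that choice. No difference was detected, with 0 of the 9 genes called between Tlr997 and Tlr9het in unstimulated cells, with CpG, or in the size of the CpG response (limma, Benjamini-Hochberg over 11494 genes). Over all genes tested, 0.0174% (2 genes) were called in unstimulated cells, 2.72% (313) with CpG and 1.55% (178) for the response. At an unadjusted p under 0.05, the damper genes counted 0, 2 and 0, and all genes 1237, 2187 and 1839. A missed threshold does not show that the genotypes are alike, and the intervals below give the sizes that the data leave.

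In unstimulated cells the differences (Tlr997 minus Tlr9het) ran from -0.29 to 0.13 on the log2 scale, with 95% intervals that together reached from -0.60 to 0.32. Traf3ip3 differed most, by -0.29 (95% interval -0.60 to 0.01, limma adjusted p = 0.482), and its groups overlapped, since the highest Tlr997 library (6.36) lay above the lowest Tlr9het library (6.32). Tbc1d10c lay at 6.55 to 6.63 in Tlr997 and 6.64 to 6.91 in Tlr9het, a difference of -0.17 (limma adjusted p = 0.662). Faim3, Laptm5, AB124611 and Btg2 lay within 0.06 of zero.

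With CpG the differences ran from -0.20 to 0.23. Sla was higher in every Tlr997 library (5.763 to 5.892) than in every Tlr9het library (5.425 to 5.758), by 0.23 ± 0.09 (SE, limma adjusted p = 0.155). Faim3 likewise did not overlap, at 7.00 to 7.31 against 6.90 to 6.97, a difference of 0.21 ± 0.09 (SE, limma adjusted p = 0.251). Neither met the threshold on the adjusted p or on the fold change. The share of all genes whose groups did not overlap was not computed, so no result is read from the separation of Sla and Faim3. The 95% intervals of the other 7 genes together reached from -0.51 to 0.44.

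The CpG response itself differed between the genotypes by -0.15 (AB124611) to 0.30 (Lax1) on the log2 scale. Lax1 fell by 3.89 in Tlr997 and by 4.19 in Tlr9het, and the interval of that difference was -0.16 to 0.76 (limma adjusted p = 0.526). For Laptm5, the most precisely measured, the difference was -0.03 with an interval of -0.26 to 0.20. The smallest adjusted p of the 9 was 0.507, for Faim3 (0.19, interval -0.09 to 0.48). Over all 9 genes the intervals reached from -0.51 to 0.76, while the falls themselves were between -4.19 and -2.61.

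**Figure D3:**
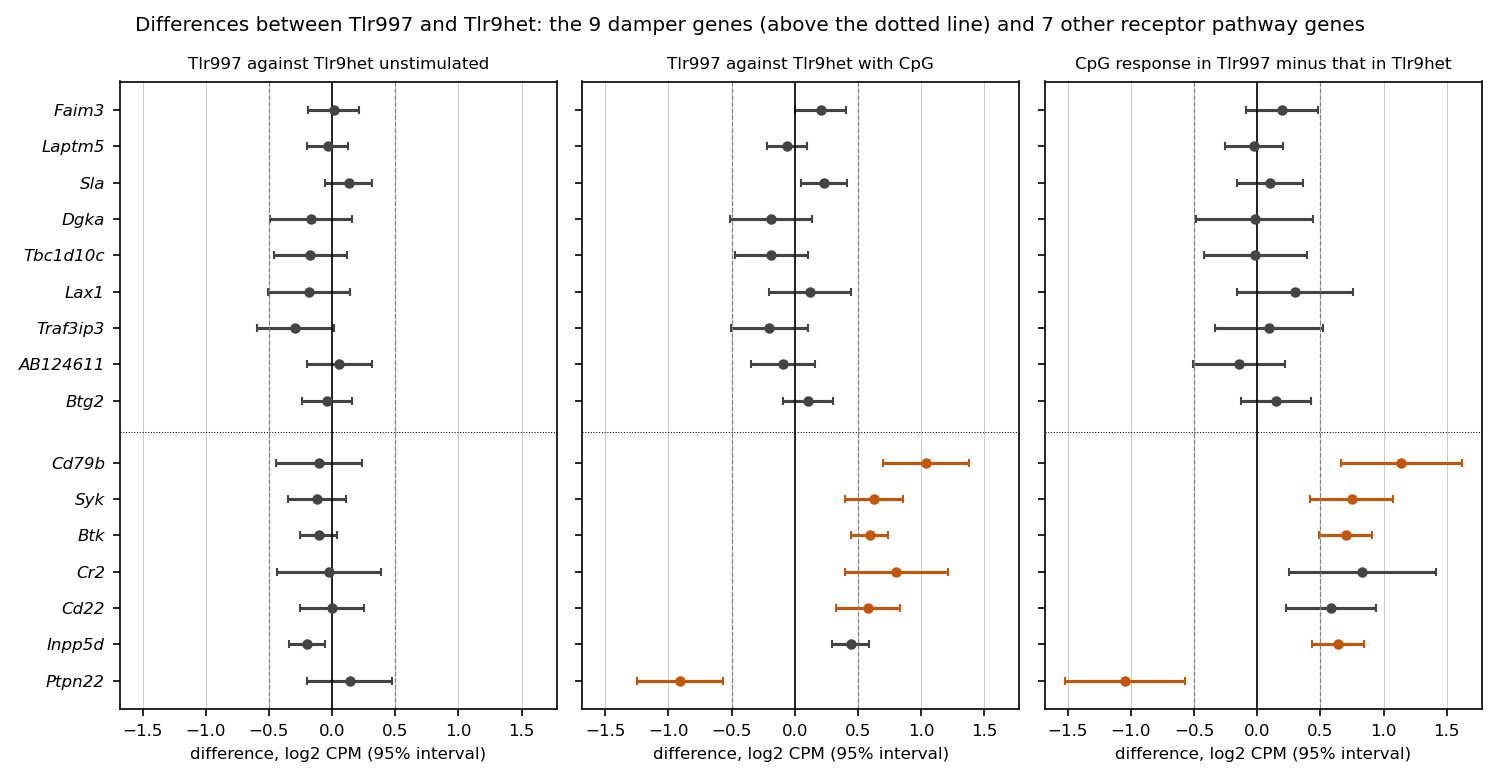
Differences between Tlr997 and Tlr9het in log2 CPM (horizontal axes) for the 9 damper genes (above the dotted line) and 7 other receptor pathway genes (rows), in unstimulated cells, with CpG, and in the CpG response; points are estimates and bars are 95% intervals, orange where called and dashed lines at 0.5. The damper genes lie between -0.29 and 0.30 in all 3 panels, with none called.

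The other genes of the receptor pathway give the surroundings of these values. Their lists were written with earlier results of these data known. Of 28 genes of the receptor complex and its activating cascade, 19 were lower and 2 higher with CpG in Tlr9het (median -0.79), and the same counts held in Tlr997 (median -1.01). With CL097 in Tlr779, 14 were lower and 3 higher (median -0.52). The signaling chains of the receptor itself were the lowest, Cd79b at -3.73 and Cd79a at -3.27 in Tlr9het, so the damper genes fell in cells in which receptor transcripts were lower too. Cd81, a tetraspanin of the B cell coreceptor complex, was higher by 1.71, and the calcium channel gene Orai1 by 0.77.

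Inhibitory surface receptors were mixed. Of the 10 measured of 11 listed, 5 were lower and 1 higher with CpG in each genotype, and 7 were lower and 1 higher with CL097, with medians of -1.10, -1.01 and -1.33. Cd22, which recruits phosphatases to the receptor, was at -3.29 in Tlr9het, and Ceacam1 at -2.84. Btla was higher by 1.15, and Cd72 was at -0.03 and not called. Of 20 other intracellular dampers, 14 were lower and 1 higher with CpG in Tlr9het (median -1.05), 13 and 1 in Tlr997 (median -1.20), and 11 of 19 lower with none higher in Tlr779 (median -0.78). Inpp5d, which encodes the lipid phosphatase SHIP1, was the lowest of all these genes at -4.94, followed by the adaptor Dok3 at -3.65. Rcan1, an inhibitor of calcineurin as Tbc1d10c is, went the other way at 0.88, and Rasa2 was at 0.25 and not called.

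**Figure D4:**
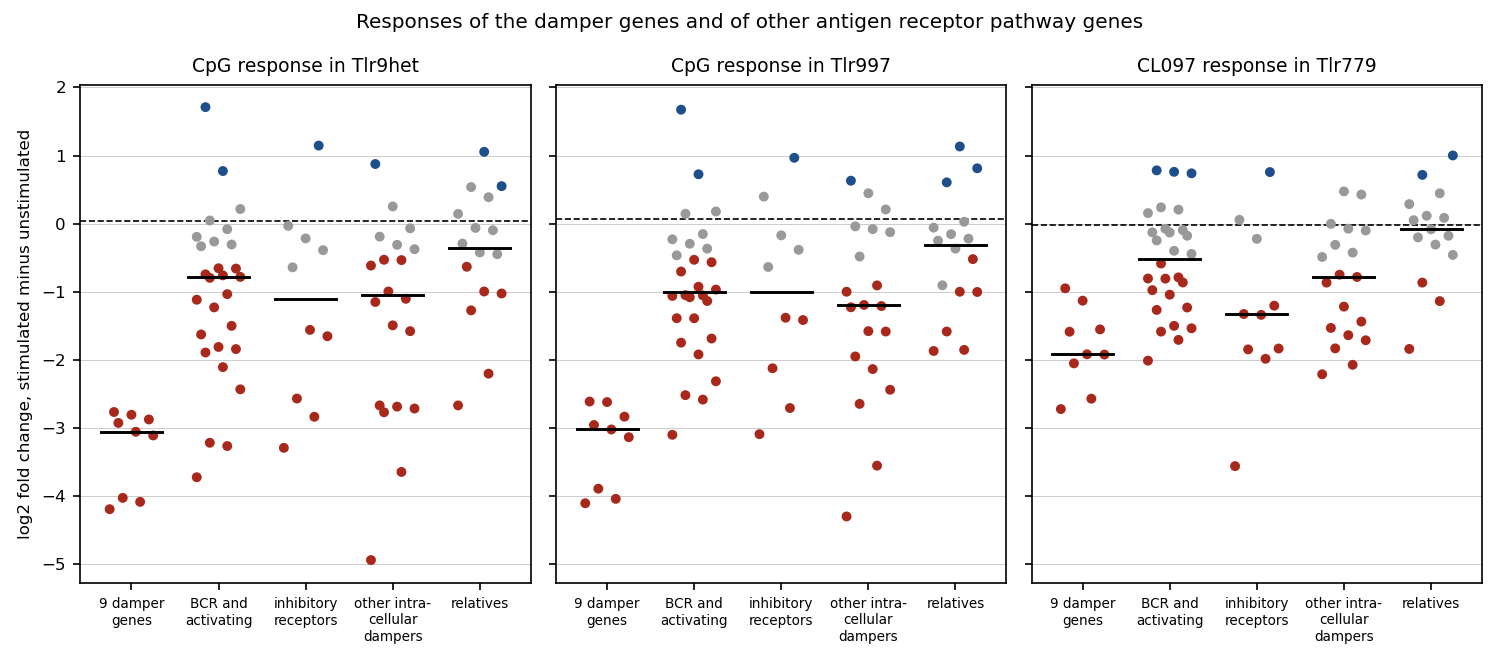
Log2 fold change (vertical axis, stimulated minus unstimulated) of the 9 damper genes and of the genes of 4 other lists (horizontal axis) in the 3 responses; each point is a gene, red where called lower, blue where called higher and grey where not called, black bars are list medians and the dashed line is the median of all genes tested. The damper genes, chosen for their fall, have medians of -3.06, -3.02 and -1.92, and the other lists spread on both sides of zero.

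Some of these pathway genes differed between the genotypes where the damper genes were not called. With CpG, 4 of the 28 receptor and activating genes were higher in Tlr997 than in Tlr9het: Cd79b by 1.04 (limma adjusted p = 0.00216), the complement receptor gene Cr2 by 0.81 (0.0252), Syk by 0.63 (0.00409) and Btk by 0.59 (3.4e-04). Of the inhibitory receptors, Cd22 was higher by 0.58 (adjusted p = 0.0112). Of the other dampers, the phosphatase gene Ptpn22 was lower by 0.91 in Tlr997, a log2 difference of -0.91 (adjusted p = 0.00426). Leaving out single libraries lost the call of Cr2 in 4 of 12 fits and that of Cd22 in 2. Cr2 was lost without Tlr9het CpG library 1 or 3 or Tlr997 CpG library 2 or 3 (0.70 to 0.77), and Cd22 without Tlr9het CpG library 1 (0.56) or Tlr997 CpG library 3 (0.44). Without the filter on low values Cr2 (adjusted p = 0.159), Cd22 (0.0897) and Ptpn22 (0.0537) were not called, nor was Cr2 without the variance trend (0.0807). Over all genes tested, 2.72% (313) were called with CpG. None of these pathway genes was called in unstimulated cells. Of the genes that the study named beside the dampers, Cd22 was thus called with CpG and Inpp5d was called for the CpG response, a smaller fall in Tlr997 with a difference of 0.64 (limma adjusted p = 0.00418). With CpG, Inpp5d differed by 0.44 (adjusted p = 0.00206), under the fold change threshold. Ets1 differed by -0.13 with CpG and by -0.05 in the response and was not called. That the 9 genes differ from those called was not tested.

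Across libraries the 9 genes moved together, as genes chosen for the same fall must. Over the 12 libraries of the Tlr7-/- arm the 36 pairwise Pearson correlations had a median of 0.993, and over the 6 Tlr779 libraries 0.984. These values rest on the step between stimulated and unstimulated libraries. With the group means removed, the median over 18 libraries was 0.23, and the pairs ran from -0.57 to 0.88. The genes most like each member over the 12 libraries were Mtss1 and Gpd1l for Faim3, Coro1a and Ets1 for Laptm5, and Xpr1 for Sla. They were Pde4b and Map4k2 for Dgka, Bin1 and Ccdc82 for Tbc1d10c, and Adcy7 and Acox3 for Lax1. For Traf3ip3 they were Filip1l and Tbc1d10c, itself one of the 9, for AB124611 Spata6 and Rasgrp2, and for Btg2 Abca1 and Ikzf3. These correlations were 0.996 to 0.999, and between 80 (Traf3ip3) and 455 (Btg2) genes had one over 0.99, so such likeness was common. In the 6 Tlr779 libraries the pairs named here had correlations of 0.961 (Sla with Xpr1) to 0.998 (Dgka with Map4k2).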

How the data were processed

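RNA sequencing libraries of bead-purified splenic B cells were used. According to the submitters' processing notes and the methods, reads were checked with FastQC 0.11.7, trimmed with Trim Galore 0.6.5, aligned to mm10 with STAR 2.6.1a and counted with featureCounts (Subread 2.0.1), then quantile normalized with voom in limma. The gene annotation and the strand setting are not given in the sources used here. The deposited values are log2 CPM as the authors' normalization left them, 1 file per library, with no counts, so no count test was used and no counting interval is given. No pseudocount was added, and the offset that voom already adds raises the values of low genes, so their falls are understated.

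limma 3.58.1 in R 4.3.3, with the variance allowed to follow mean expression, was fitted to genes over 0 log2 CPM in at least 3 of the fitted libraries. The 12 libraries of the Tlr7-/- arm shared 1 model of group means. The 6 Tlr779 libraries had another. Calls used the thresholds of the study's methods (adjusted p under 0.05, absolute log2 fold change over 0.5). The scripts were tested on simulated data. The members and lists were chosen with earlier results of these data known. Besides the members, the text names the 2 highest and 2 lowest genes of each list in the Tlr9het response, list genes called between genotypes, and the 2 genes most correlated with each member, of which 1 is not reported here. The lists were receptor and activating genes, inhibitory receptors, other intracellular dampers and relatives of the members, besides markers of B cells, T cells, macrophages, neutrophils, NK cells, plasmacytoid dendritic cells, erythroid cells and plasma cells. Summed levels (log2 CPM) of the last 5 went, in Tlr9het with CpG, from means of 6.27 to 5.96 (neutrophil), 0.15 to 2.22 (NK), 6.31 to 4.83 (plasmacytoid dendritic), 5.44 to 5.12 (erythroid) and 9.14 to 8.47 (plasma cell). In the same order they went from 6.68 to 6.10, -0.02 to 1.72, 6.23 to 4.81, 6.27 to 5.70 and 9.07 to 8.31 in Tlr997, and from 5.46 to 4.72, -0.56 to -0.03, 6.06 to 5.40, 7.20 to 7.61 and 9.72 to 9.02 in Tlr779 with CL097. Pacsin1 made up most of the plasmacytoid dendritic sum, with means of 6.17 and then 4.55 in Tlr9het. Siglech went from 2.21 to 1.72 there and Ccr9 from 1.40 to 0.71, while Ccr9 went from 0.70 to 0.93 in Tlr779.

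Deviations from group means correlated between same-numbered unstimulated and stimulated libraries at 0.51, 0.29 and 0.51 in Tlr9het and at 0.25, 0.49 and 0.33 in Tlr779, which were read as pairs. In Tlr997 the correlations were 0.37, 0.083 and 0.025, and those libraries were not read as pairs. The main fits had no block, so the standard errors, intervals and p-values given above do not use any pairing. Of 6614 genes under -4 throughout the first arm, 6306 showed 1 value per replicate number and for 822 of these it differed between numbers, so an offset per number appears to have been removed before deposit, which tests without a block do not take into account.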

Additional observations from a re-analysis of the deposited data

Results flagged for a closer look

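None of the 9 damper genes was called for a difference in CpG response between the genotypes. Among the other genes of the receptor pathway, 5 were called, by limma's test of the difference between the CpG response in Tlr997 and that in Tlr9het (Benjamini-Hochberg over all genes tested), and they are given for that reason. These were 3 of 28 receptor and activating genes, 0 of 10 inhibitory receptors, and 1 higher and 1 lower of 20 other intracellular dampers. Over all genes tested, 1.55% (178) were called. The lists were written with earlier results of these data known, so no enrichment is read from these counts. For Btk the CpG response was -2.52 in Tlr997 and -3.22 in Tlr9het, which differ by 0.70 on the log2 scale (adjusted p = 0.00275). Syk differed by 0.75 (adjusted p = 0.026), from -1.69 in Tlr997 and -2.43 in Tlr9het. Cd79b differed by 1.14 (adjusted p = 0.0214), with CpG libraries at 8.69, 7.87 and 8.07 log2 CPM in Tlr997 and 7.07, 7.22 and 7.22 in Tlr9het. Inpp5d differed by 0.64 (adjusted p = 0.00418), from -4.30 and -4.94. Ptpn22 went the other way, with a difference of -1.05 (adjusted p = 0.0298), from -1.58 and -0.53. Leaving out single libraries in 12 fits lost no call of Btk or Inpp5d. The call of Syk was lost in 7 of them (0.66 to 0.76), without Tlr997 CpG library 1 or 3, unstimulated Tlr997 library 2, Tlr9het CpG library 1 or 3, or unstimulated Tlr9het library 1 or 2. That of Cd79b was lost in 4 (1.09 to 1.17), without any 1 of the Tlr9het CpG libraries or unstimulated Tlr9het library 1. That of Ptpn22 was lost in 7 (-1.09 to -0.93), without any 1 of the 6 Tlr9het libraries or unstimulated Tlr997 library 2. These 3 calls were also lost without the variance trend and without the filter on low values, and that of Cd79b with all 18 libraries in 1 model.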

How the results depend on the processing

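The damper genes stayed lower in all 3 responses under every alternative that was run, with median log2 fold changes between -3.15 and -2.98 in Tlr9het, -3.11 and -2.96 in Tlr997 and -1.94 and -1.86 in Tlr779 when single libraries were left out. Between the genotypes, 639 values under alternatives gave 0 calls for the 9 genes and 29 changes of sign, in differences near zero. Array quality weights turned Faim3 (-0.0254) and AB124611 (-0.0036) in unstimulated cells and Dgka (0.0600) in the response, and a pseudocount of 1 CPM turned Tbc1d10c (0.0121). Leaving out single libraries gave unstimulated ranges of -0.0875 to 0.0965 for Faim3, -0.0702 to 0.0308 for Laptm5, -0.0013 to 0.14 for AB124611 and -0.12 to 0.0063 for Btg2. It gave ranges with CpG of -0.12 to 0.0073 for Laptm5 and -0.19 to 0.0052 for AB124611. For the response the ranges were -0.0918 to 0.0427 for Laptm5, -0.15 to 0.12 for Dgka, -0.16 to 0.14 for Tbc1d10c and -0.0272 to 0.27 for Traf3ip3. The cause was not tested.

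Counts over all genes moved more. A fold change threshold of 1 gave 4059, 3768 and 2581 called genes in the 3 responses (6649, 6387 and 5133 at 0.5). Between the genotypes it gave 74 with CpG and 46 for the response, against 313 and 178. In unstimulated cells 0 genes were called without the filter on low values or with only the compared groups in the model, and 4 without unstimulated Tlr997 library 2 or 3. With CpG the count was 187 without that filter or without Tlr9het CpG library 1, 485 with array weights and 680 with no fold change threshold. For the response it was 98 without the variance trend, 78 without the filter and 377 with weights. It was 295 without unstimulated Tlr997 library 3, 87 without unstimulated Tlr9het library 1, and 101, 101 and 90 without Tlr9het CpG library 1, 2 or 3.

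With same-numbered libraries of each genotype as blocks, the response count was 328 (176 of the 178 shared) and the members' medians were -3.06, -3.02 and -1.92 as before. The comparisons of genotypes in unstimulated cells and with CpG used the replicate number alone as the block. No member's call changed with either block. Tlr997 numbers 2 and 3 did not correlate as pairs. Restricting the model to the compared groups was not run for the response or for Tlr779, whose libraries are all compared. With 3 libraries a group and no counts, differences inside the intervals given above cannot be seen.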

Other observations

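Of 21 listed relatives of the damper genes 16 were measured well enough to be tested with CpG, of which 6 were lower and 2 higher in Tlr9het (median -0.36) and 6 lower and 3 higher in Tlr997 (median -0.31), against 3 lower and 2 higher of 15 with CL097 in Tlr779 (median -0.08). Of all genes tested, 28.2% were called lower and 29.7% higher in Tlr9het, 26% and 29.6% in Tlr997, and 23.6% and 22.7% in Tlr779, and nothing particular to the relatives is read from their counts. Sla2, a paralog of Sla, was at -2.67 in Tlr9het, a gene whose unstimulated libraries lay only at 0.43 to 0.51 log2 CPM. Dgkd, another diacylglycerol kinase gene, went from 9.50, 9.59 and 9.63 log2 CPM to 7.44, 7.32 and 7.34, a log2 fold change of -2.20, whereas Dgkh was higher by 0.55. Tbc1d10a, a paralog of Tbc1d10c, went from 4.599, 4.574 and 4.615 to 5.633, 5.585 and 5.736, higher by 1.06, while Tbc1d10c fell by 4.03 in the same libraries. None of the 16 relatives was called between Tlr997 and Tlr9het in any of the 3 comparisons, at limma's adjusted p under 0.05 with a log2 difference over 0.5.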
